A study of Rattus norvegicus with 12 samples.

Results

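The comparison described here sets the prostates of obstructed rats that received vehicle against those of sham-operated rats that received Eviprostat. Its 6 arrays, 3 in each group, were taken by their titles from the 12 arrays of the series. All rats were males of 10 weeks. In the obstruction/vehicle group a rubber ring tied around the urethra near the bladder obstructed the outlet, and the rats received 0.1% Tween 80 as vehicle for 5 days, starting on the day after the operation. In the sham/Eviprostat group the rats had a sham operation and, beginning 5 days later, received Eviprostat for 5 days. Eviprostat is a plant-based medicine given for an enlarged prostate. Each dose was 18 mg/kg, and the doses of a day came to 36 mg/kg. The operation, the drug and the time since the operation thus all differ between the 2 groups and cannot be told apart. Each group held 5 or 6 rats, whose prostate tissue was pooled per the labelling protocol, although the labels call the arrays of a group biological replicates. The p-values therefore measure the spread between arrays, which may be technical, and not the spread between animals.

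Every array carried the RNA of its own group in the red dye, Cy5, and RNA of the sham/vehicle group in the green dye, Cy3. Values are log2 ratios of Cy5 to Cy3, and a difference is the mean log ratio of obstruction/vehicle minus that of sham/Eviprostat, given with its standard error. A gene is called higher or lower where limma gave an adjusted p under 0.05. The 3 sham/vehicle arrays, with the same RNA in both dyes, are shown for reference. Each of 3 slides held 1 array of every group, always at the same place, so place and group cannot be told apart. Slide 1, which carried replicate 1, was scanned on another day and was dimmer in Cy5. On the 6 arrays Cy5 was well above background on 75.6% to 88.4% of spots, and the number of arrays limits the precision.

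The groups were chosen because seminal vesicle genes stand high in both, so that other changes can be read where that tissue signal is present on both sides. The seminal vesicles and the coagulating gland lie against the rat prostate and secrete the proteins of the copulatory plug. Inflamed tissue, by contrast, makes CXC chemokines that attract neutrophils, interleukin-1 and its inhibitors, and monocyte attractants. In a later phase macrophages clear debris and fibroblasts lay down collagen and its crosslinking enzymes, while protease inhibitors such as Timp1 limit its breakdown. The prostate markers Pbsn (probasin) and Msmb (microseminoprotein), secreted by prostate epithelium, were bright in both groups. Their mean Cy5 intensities were 287500 and 221500 in obstruction/vehicle and 417700 and 380900 in sham/Eviprostat. The Pbsn mean in obstruction/vehicle lacks the array on the dimmer slide, where its spot was left out as an outlier. The Pbsn means thus cover unlike arrays, and their sizes cannot be compared directly.

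Of 36098 probes tested, 2180 were higher in obstruction/vehicle (6.04%) and 1283 lower (3.55%), 9.59% in all. Differences of at least 2-fold made up 782 of the higher calls (2.17% of probes) and 193 of the lower ones (0.535%). Counted by gene, with the brightest probe standing for each of 14663 genes, 1136 were higher (7.75%) and 705 lower (4.81%), 12.6% together, around a median difference of -0.007. These shares of 7.75% and 4.81% are the ones to set beside each list count below. The split between directions differed between alternatives. Of the called probes 63.0% were higher after loess, 83.4% with median centring, 95.5% with raw signals, 42.6% with the scanner software's ratio (which differs in both background correction and normalization) and 52.7% on slides 2 and 3 alone. With the replicate number, which is also the slide, as a block, 4366 probes were higher and 3656 lower. Single arrays moved the count too. It was 6069 without obstruction/vehicle replicate 2, 2241 without obstruction/vehicle replicate 3, and 2117 and 2137 without sham/Eviprostat replicates 2 and 3. Raw signals, with neither background correction nor normalization, gave 112 calls.

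Seminal vesicle genes were high in both groups, and part of them were higher still in the obstructed rats. Of the 12 genes of the seminal vesicle and coagulating gland list that were measured, 5 were called higher in obstruction/vehicle by the ratio. None were lower, and the median difference was 0.64. By Cy5 alone 8 were called higher and none lower, with a median of 1.78, and Svs4, called by the ratio, was not among them. Against the sham/vehicle arrays, 10 were higher in obstruction/vehicle and 8 in sham/Eviprostat, where 9.94% and 1.21% of all genes were. Those comparisons share the sham/vehicle arrays, and the difference between the groups is the first of them minus the second. The groups were chosen because these genes are high in both, so the 2 counts describe that choice and do not test it. Svs5 and Svs6, secretory proteins of the seminal vesicle fluid, carried the largest ratios. Their genes lie with Svs3a, Svs3b and Svs4 on chromosome 3.

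The upstream sequences of 3 of these genes are shown because the genes stood high together in both groups. They are the 120 bases before the annotated start in RefSeq on build GRCr8, all on the plus strand, at chr3:173380965-173381084 for Svs3a, chr3:173415401-173415520 for Svs5 and chr3:173397572-173397691 for Svs6. Capitals mark TATAAA, searched on both strands in the 250 bases before the start.
Svs3a: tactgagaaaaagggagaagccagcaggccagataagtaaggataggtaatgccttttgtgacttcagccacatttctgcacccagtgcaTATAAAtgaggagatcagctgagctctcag
Svs5: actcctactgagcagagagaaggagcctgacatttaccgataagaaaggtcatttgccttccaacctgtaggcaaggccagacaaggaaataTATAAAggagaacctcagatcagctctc
Svs6: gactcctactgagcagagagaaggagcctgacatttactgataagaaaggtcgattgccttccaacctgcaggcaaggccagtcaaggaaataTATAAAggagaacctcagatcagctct
The Svs5 and Svs6 stretches share 114 of 119 aligned bases (95.8%), so they are not independent examples. TATAAA was found for 7 of the 10 list genes with a promoter in the table and in 12.9% of all 33469 promoters.

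Svs5 had log2 ratios of 7.93, 7.43 and 8.15 on obstruction/vehicle replicates 1, 2 and 3 and of 6.65, 7.33 and 7.43 on the sham/Eviprostat arrays (rn3 chr3:155171865-155171924). The sham/vehicle arrays lay between -0.05 and 0.20, and the 2 groups compared here met at 7.43, with a difference of 0.70 ± 0.35 (95% confidence interval -0.07 to 1.47; adjusted p = 0.277 by limma). Svs6 gave 7.82, 6.41 and 6.71 in obstruction/vehicle and 7.22, 6.41 and 6.50 in sham/Eviprostat, a difference of 0.27 ± 0.31 (adjusted p = 0.682 by limma) between overlapping groups. The call for Svs3a, another seminal vesicle secretory protein, was narrow. Its ratios of 6.13, 6.26 and 6.44 all lay above the sham/Eviprostat values of 5.44, 5.78 and 5.84, and the difference was 0.59 ± 0.13 (adjusted p = 0.0152 by limma).

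The ratio of Svs4 differed by more than that of any other gene of the list, on a probe saturated in Cy5 on 2 arrays of each group. Its ratios were 5.61, 4.75 and 5.03 in obstruction/vehicle and 3.22, 2.73 and 2.76 in sham/Eviprostat, with no overlap and a difference of 2.23 ± 0.20 (adjusted p = 1.96e-05 by limma). Its Cy5 alone differed by 0.35 and was not called (adjusted p = 0.727 by limma). Mean Cy3 intensity, from sham/vehicle RNA on every array, was 8304 on the obstruction/vehicle arrays, 30510 on the sham/Eviprostat arrays and 140400 on the sham/vehicle arrays. Mean Cy5 was 561600, 540800 and 438900 in the same order. For the 11 other genes of the list mean Cy3 was higher on the obstruction/vehicle arrays than on the sham/Eviprostat arrays, as it was for Svs1, with 5941 against 1668. Spink1l, related to a secreted trypsin inhibitor, rose by 1.17 ± 0.32 in the ratio (adjusted p = 0.0392 by limma) and by 2.91 in Cy5 alone. Svs1 and Svs7 differed by 0.18 and 0.53 in the ratio, neither called, and by 2.29 and 2.36 in Cy5 alone, both called. The part that Cy3 plays in these ratios was not tested. Svs5 and Svs6 were saturated in Cy5 on 2 of the 3 obstruction/vehicle arrays, which limits their upper end.

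Svs3b and Ceacam4 completed the called members. Svs3b was higher by 0.73 ± 0.17 (adjusted p = 0.0194 by limma) and Ceacam4, a cell adhesion gene to which the older name Ceacam10 leads, by 1.38 ± 0.13 (adjusted p = 4.01e-05 by limma). Ceacam4 stood at 0.30, 0.36 and 0.32 on the sham/Eviprostat arrays, near the sham/vehicle mean of 0.11, so it was not among the genes high in both groups. Semg1, a semenogelin, had ratios of -0.10, -0.89 and -0.42 against 0.55, -0.03 and 0.22, a difference of -0.72 ± 0.21 (adjusted p = 0.0557 by limma, and 0.000367 with the replicate block). Spink1 differed by 0.92 ± 0.35 (adjusted p = 0.137 by limma, and 0.0487 with the block), with overlapping groups, and its other probe was called lower at -0.41. Tgm4, the coagulating gland transglutaminase, was dim in both groups, with mean Cy5 of 490.1 and 498.9 and a difference of -0.04 ± 0.09 (adjusted p = 0.843 by limma).

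With median centring 2 of the 12 genes were called, and with Cy5 alone 8. Single arrays also mattered. Without obstruction/vehicle replicate 3 the adjusted p by limma was 0.0703 for Svs3a and 0.09 for Svs3b, and 2 of the 12 genes were called higher. Without sham/Eviprostat replicate 1 it was 0.053 for Svs3b, and 3 were called. Leaving out any of the 6 arrays but obstruction/vehicle replicate 2 ended the call of Spink1l, with adjusted p between 0.077 and 0.167 by limma. Without obstruction/vehicle replicate 2, Svs7 and Spink1 were called, with adjusted p = 0.0267 and 0.00287 by limma. Semg1 was called lower without obstruction/vehicle replicate 1, with adjusted p = 0.0263 by limma. Over the 12 probes the mean log ratio ran from 3.564 to 4.184 on the obstruction/vehicle arrays and from 3.245 to 3.365 on the sham/Eviprostat arrays. Their summed Cy5 was 1557000 to 3098000 and 842300 to 2122000, against 189300 to 862100 on the sham/vehicle arrays. The part of seminal vesicle tissue in the other differences was not tested.

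**Figure D1:**
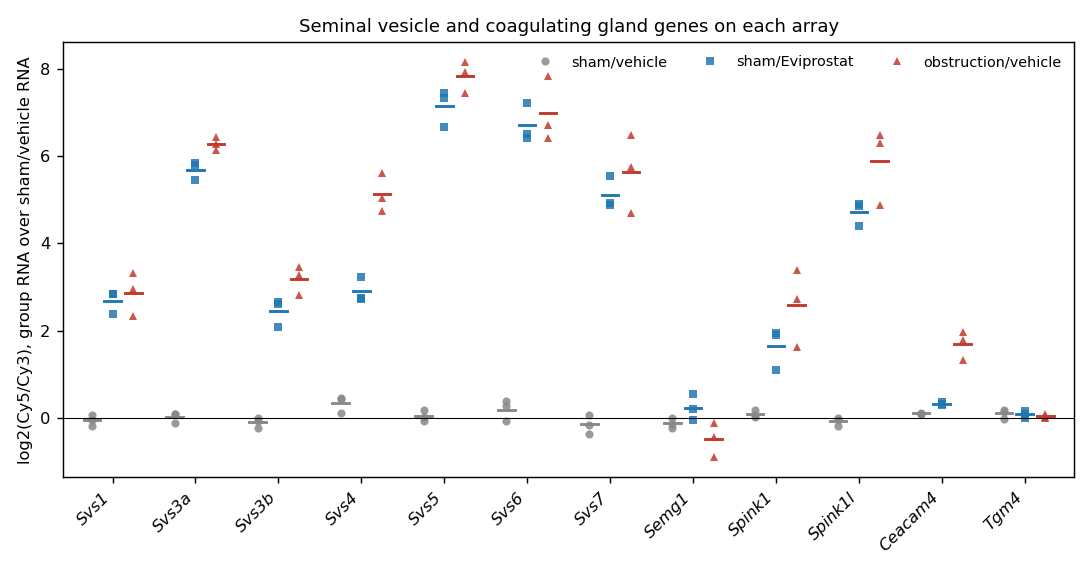
Log2 of Cy5 over Cy3, where Cy5 is the RNA of each group, for the 12 measured seminal vesicle and coagulating gland genes, with 1 point per array and a bar at the mean of 3 arrays in sham/vehicle, sham/Eviprostat and obstruction/vehicle. Svs5 and Svs6 reach 6.41 or more on all 6 arrays compared, and Tgm4 lies near 0 throughout. Svs4 separates the groups in this ratio, but its Cy5 alone was not called and its Cy3 differed between them.

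Against that shared background, 4 of 8 neutrophil-attracting CXC chemokine and receptor genes were called higher in obstruction/vehicle and none lower, with a median difference of 1.01. With probes required to be well above background on all 6 arrays, 3 were called. Cxcl2, which binds the neutrophil receptor Cxcr2, had the largest rise in the ratio over all genes, each taken by its brightest probe, with ratios of 7.49, 6.71 and 7.73 in obstruction/vehicle and of -0.10, 0.21 and 0.29 in sham/Eviprostat (rn3 chr14:18677236-18677295). The difference of 7.18 ± 0.21 is 145-fold (adjusted p = 2.88e-09 by limma). Cxcl1, a neighbouring chemokine with the same receptor, gave 5.59, 3.38 and 5.45 against 0.02, -0.28 and 0.02, a difference of 4.89 ± 0.42 (adjusted p = 1.66e-05 by limma). For each gene every obstruction/vehicle array lay above every sham/Eviprostat array, and replicate 2 was the lowest of the obstructed arrays. Cxcl3 rose by 3.69 ± 0.20 (adjusted p = 3.13e-07 by limma) on its brighter probe, while its other probe differed by -0.20 and was not called. The fourth called gene was Pf4. The receptors Cxcr1 and Cxcr2 and the chemokines Ppbp and Cxcl6 were not called. Pf4 and these 4 are named after their values were seen, as are all genes below that complete a count of 5 or fewer.

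The stretches upstream of Cxcl1, Cxcl2 and Il6 are printed because the 2 chemokines rose together and because each stretch holds the NF-kappaB consensus, the motif bound by a factor that inflammatory signals activate. They are RefSeq sequences on GRCr8, minus strand, each 120 bases before the start, at chr14:17479322-17479441, chr14:17467256-17467375 and chr4:5894576-5894695. Capitals mark the consensus, searched on both strands in 250 bases. In Cxcl1 and Cxcl2 a pair of overlapping matches begins 84 and 74 bases before the start, and in Il6 a single match begins 68 bases before it.
Cxcl1: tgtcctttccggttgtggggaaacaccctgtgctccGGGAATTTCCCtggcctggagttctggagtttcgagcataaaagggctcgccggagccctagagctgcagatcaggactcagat
Cxcl2: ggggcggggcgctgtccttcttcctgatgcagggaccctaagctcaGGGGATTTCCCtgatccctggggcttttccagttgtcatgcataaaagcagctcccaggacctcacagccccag
Il6: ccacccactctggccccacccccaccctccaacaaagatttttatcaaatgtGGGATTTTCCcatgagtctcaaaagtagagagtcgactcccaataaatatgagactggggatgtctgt
Of the 6 list genes with a promoter in the table, 3 held the consensus (Cxcl1, Cxcl2 and Cxcl6), against 6.33% of all promoters. Of 20 cytokine and receptor genes with a promoter 4 held it (Il1r1, Il1rap, Il6 and Socs3), as did 4 of 20 other chemokine genes, and the Il1b and Il1rn windows did not. Cxcl6, with a match, differed by 0.31 and was not called. Here too a gene was counted if any of its promoters held the motif, while the 6.33% is over single promoters.

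Among neutrophil genes 14 of 21 were called higher and none lower, with a median difference of 1.53. S100a9, a subunit of the calcium-binding protein calprotectin, gave 5.85, 4.74 and 6.37 in obstruction/vehicle and -0.34, -0.01 and 0.01 in sham/Eviprostat, a difference of 5.77 ± 0.30 (adjusted p = 2.12e-07 by limma). Its partner S100a8 rose by 5.18 ± 0.30 (adjusted p = 5.05e-07 by limma) on its brightest probe, which was not well above background on the sham/Eviprostat arrays, and by 3.41 and 1.75 on its 2 other probes, both called. Lcn2, a siderophore-binding protein of neutrophil granules that epithelia also make, rose by 4.06 ± 0.17 (adjusted p = 2.63e-08 by limma). The call also held for Mmp9, the gelatinase of neutrophil granules, at 1.96 ± 0.33 (adjusted p = 0.00274 by limma), and for Hp, haptoglobin, at 2.73 ± 0.22 (adjusted p = 1.1e-05 by limma). Mpo, Prtn3 and Ltf, granule genes made mostly during maturation in marrow and named after their values were seen, differed by -0.05 to 0.14 and were not called. They do not stand for all granule genes, since Lcn2 and Mmp9 were called. Camp, another granule gene of the list and likewise named afterwards, was called higher on its less bright probe, at 1.90 ± 0.42 (adjusted p = 0.0139 by limma). On 5 of the 21 probes no sham/Eviprostat array was well above background. With probes required to be well above background on all 6 arrays, 7 were called. Summed Cy5 over the 21 probes was 169100 to 628400 on the obstruction/vehicle arrays and 15580 to 54030 on the sham/Eviprostat arrays, against 8793 to 14370 on the sham/vehicle arrays. The list and these sums include Slpi, a protease inhibitor of secretions that, as given below, was also higher in sham/Eviprostat than in sham/vehicle.

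Of 27 cytokine and receptor genes 12 were called higher, against 7.75% of all genes, and none lower, with a median difference of 0.65. With probes required to be well above background on all 6 arrays, 10 were called. Among the 12 were 3 genes of the interleukin-1 family, Il1b, Il1rn and Il1r2. Il1b, the secreted interleukin-1 beta, gave 3.31, 3.64 and 3.92 against -0.11, -0.23 and -0.20, a difference of 3.81 ± 0.13 (adjusted p = 1.22e-08 by limma; rn3 chr3:116870289-116870348). Its other probe rose by 5.97 ± 0.23 (adjusted p = 1.8e-08 by limma). In Cy5 alone the difference was 7.99. Mean Cy3 at the brightest probe was 3167 on the obstruction/vehicle arrays and 423.5 on the sham/Eviprostat arrays, although both carried sham/vehicle RNA, so the ratio was the smaller of these measures. The natural inhibitors rose with it. Il1rn, the receptor antagonist, gave 5.80, 4.63 and 5.47 against 0.37, -0.06 and -0.01, a difference of 5.20 ± 0.24 (adjusted p = 6.84e-08 by limma; 1.73 on a dimmer probe, also called), and Il1r2, the decoy receptor, rose by 3.29 ± 0.23 (adjusted p = 3.26e-06 by limma). The signalling receptor Il1r1 differed by 0.10 and was not called.

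Tumour necrosis factor was not called, and the interleukin-6 call was narrow. Tnfrsf1b, a receptor for tumour necrosis factor found on leukocytes, rose by 3.92 ± 0.26 (adjusted p = 1.93e-06 by limma), whereas Tnf itself gave -0.01, 0.00 and -0.03 against -0.13, -0.17 and -0.23, a difference of 0.17 ± 0.07 (adjusted p = 0.21 by limma) that was called, of the alternatives run, with the scanner software's ratio alone. Mean Cy5 at this probe was 447.1 and 426.8. Il6, an inducer of the acute-phase response, gave 1.81, 0.37 and 2.08 in obstruction/vehicle and was not well above background in sham/Eviprostat, which gives a rise of at least 4.12-fold by Cy5 level, with the dim arrays taken at the lowest signal well above background. The ratio difference was 1.44 ± 0.32 (adjusted p = 0.0126 by limma), and without obstruction/vehicle replicate 1 or 3 the adjusted p was 0.0535 or 0.0526 by limma. Socs3, a feedback inhibitor downstream of interleukin-6, rose by 1.15 ± 0.31 (adjusted p = 0.0341 by limma). Its call ended, with adjusted p between 0.122 and 0.13, without obstruction/vehicle replicate 1 or 3 or sham/Eviprostat replicate 2 or 3.

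Of 27 other chemokines and receptors 10 were called higher and none lower, with a median difference of 0.41. Ccl2, the main monocyte attractant, gave 4.76, 2.38 and 4.95 against 0.05, 0.25 and 0.26, a difference of 3.84 ± 0.51 (adjusted p = 0.000462 by limma), with the obstructed replicate 2 well below the others. Ccl6, Ccl3 and Ccl7, further attractants of myeloid cells, rose by 3.51 ± 0.17, 2.85 ± 0.14 and 2.18 ± 0.33. Cxcl12, which retains leukocytes in marrow and tissue, differed by 0.39 ± 0.18 (adjusted p = 0.23 by limma, and 0.0051 with the replicate block).

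**Figure D2:**
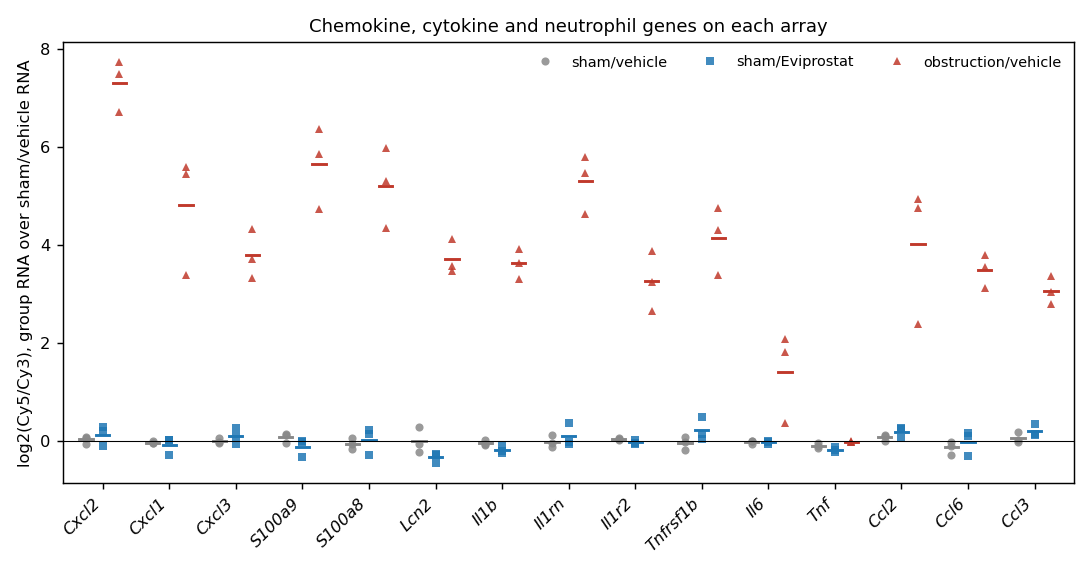
Log2 ratio of Cy5 to Cy3 for 15 chemokine, cytokine and neutrophil genes, with 1 point per array and a bar at the mean of 3 arrays in each group. Cxcl2 reaches 6.71 to 7.73 on the obstruction/vehicle arrays and stays between -0.10 and 0.29 on the sham/Eviprostat arrays, while Tnf lies near 0 in all groups.

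Macrophage and monocyte genes were higher in obstruction/vehicle. Of 26 measured, 22 were called higher and none lower, with a median difference of 1.48, and for 22 every obstruction/vehicle array lay above every sham/Eviprostat array, as held for 12.8% of all genes. Lyz2, a lysozyme of myeloid cells, gave 2.53, 2.59 and 2.93 against -0.57, -0.41 and -0.39, a difference of 3.14 ± 0.12 (adjusted p = 1.29e-08 by limma). The Fc receptors Fcgr2b and Fcgr2a, which bind antibody-coated particles, rose by 4.27 ± 0.38 and 4.24 ± 0.27, and Gpnmb, a glycoprotein of lipid-laden macrophages, by 3.58 ± 0.31. Tyrobp, a signalling adaptor of myeloid receptors, rose by 2.94 ± 0.13 on its brightest probe (its other probe differed by 0.52 and was not called), and Cd68, a lysosomal macrophage marker, by 1.70 ± 0.15. Cd163, a scavenger receptor of resident macrophages, had ratios of 1.40, 0.17 and 1.21 against 0.44, -0.04 and 0.07, a difference of 0.77 ± 0.25 (adjusted p = 0.0864 by limma). It was called with the replicate block (adjusted p = 0.0118 by limma) and without obstruction/vehicle replicate 2 (adjusted p = 0.000286 by limma). Summed Cy5 over the 26 probes was 195200 to 702800 on the obstruction/vehicle arrays and 28060 to 132200 on the sham/Eviprostat arrays. In pooled tissue, more cells of a type and more RNA per cell cannot be told apart.

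Lymphocyte markers gave few calls. Of 21 T and NK cell genes 2 were called, Cd3g at 0.64 ± 0.15 (adjusted p = 0.017 by limma) and Cd8b at 0.32 ± 0.08 (adjusted p = 0.0344 by limma), a share of 9.52% near that of all genes. The T cell receptor component Cd3e differed by -0.11 ± 0.10 (adjusted p = 0.602 by limma). With the replicate block 5 were called and without obstruction/vehicle replicate 2, 6. Without obstruction/vehicle replicate 1 or 3 or sham/Eviprostat replicate 3, 1 was called, and without sham/Eviprostat replicate 1 none (adjusted p = 0.0519 for Cd3g and 0.0656 for Cd8b by limma). Of 7 B and plasma cell genes Cd38 was called, at 0.55 ± 0.15 (adjusted p = 0.034 by limma), and Cd79b, a part of the B cell receptor, differed by -0.11 ± 0.08 (adjusted p = 0.493 by limma). The other Cd38 probe differed by 0.20 and was not called. With the mean of all probes of a gene, none of these genes was called. The Cd38 call ended without obstruction/vehicle replicate 1 or 3 (adjusted p = 0.09 and 0.111 by limma) and without sham/Eviprostat replicate 2 or 3 (0.116 and 0.104), and without obstruction/vehicle replicate 2 a second gene of the list was called, 2 in all.

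Among class II antigen presentation genes 4 of 9 were called higher and none lower. Cd74, the invariant chain, gave 0.99, 1.00 and 1.23 against -0.54, -0.35 and -0.42, a difference of 1.51 ± 0.09 (adjusted p = 7.85e-07 by limma). The class II chains RT1-Da and RT1-Db1 rose by 1.56 ± 0.11 and 1.34 ± 0.09, and RT1-Bb by 1.26 ± 0.30 (adjusted p = 0.0191 by limma, and 0.0732 to 0.0838 without obstruction/vehicle replicate 1 or sham/Eviprostat replicate 2 or 3). RT1-Db1 also had a probe at 1.23, called, and a probe at 0.31, not called. Of 26 complement and acute-phase genes 20 were called higher and none lower, with a median difference of 1.18. Cfd, complement factor D, which fat cells also secrete, rose by 3.65 ± 0.17, and C3, the central complement protein, by 2.68 ± 0.17 (adjusted p = 1.16e-06 by limma).

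The matrix was the second large block. Of 17 collagens 10 were called higher and none lower, with a median difference of 0.88. Of 33 matrix glycoproteins and crosslinking genes 20 were higher and none lower, with a median of 0.84. The share of all genes called higher was 7.75%. Col1a1, a chain of the main fibrillar collagen, gave 3.40, 2.65 and 2.93 in obstruction/vehicle and 1.08, 0.67 and 0.65 in sham/Eviprostat, against -0.08 as the sham/vehicle mean (rn3 chr10:83652547-83652606). The difference was 2.19 ± 0.19 (adjusted p = 1.72e-05 by limma), and the 2 other Col1a1 probes rose by 1.39 and 1.44. Col1a1 was also higher in sham/Eviprostat than in sham/vehicle, by 0.88 (adjusted p = 0.0448 by limma), so part of its rise over sham/vehicle was present on both sides. Col3a1, which co-assembles in the same fibrils, rose by 1.96 ± 0.20, Col5a2 by 1.46 ± 0.14 and Col1a2 by 1.43 ± 0.12. The basement membrane chains Col4a1 and Col4a2 differed by 0.20 and 0.13 on their brightest probes and were not called, while the other Col4a1 probe was called higher at 1.03. These basement membrane genes are named after their values were seen.

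Glycoproteins that bind or crosslink the fibrils went the same way. Fn1, fibronectin, gave 3.18, 2.21 and 2.97 against 0.71, 0.10 and 0.13, a difference of 2.47 ± 0.22 (adjusted p = 2.39e-05 by limma). Bgn, the proteoglycan biglycan, rose by 2.37 ± 0.22 and Lox, which crosslinks collagen and elastin, by 1.97 ± 0.19. Spp1, osteopontin, gave 2.29, 0.61 and 2.60 against 0.11, 0.17 and 0.19, so the groups did not overlap but replicate 2 lay close. Its difference of 1.68 ± 0.37 (adjusted p = 0.0133 by limma) was not called without obstruction/vehicle replicate 1 or 3 (adjusted p = 0.0562 and 0.0572 by limma). The counts depended on single arrays. Without obstruction/vehicle replicate 3, 6 collagens and 11 glycoproteins were called, and the glycoprotein count was 13, 12 and 13 without obstruction/vehicle replicate 1 and sham/Eviprostat replicates 2 and 3. A fit of only the 6 arrays compared called 7 collagens and 7 glycoproteins.

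Among proteases and inhibitors 9 of 23 were called higher and none lower, with a median difference of 0.35 (0.21 without obstruction/vehicle replicate 3 and 0.19 without sham/Eviprostat replicate 1). With probes required to be well above background on all 6 arrays, 6 were called and the median was 0.30. Timp1, an inhibitor of matrix metalloproteinases, gave 4.54, 4.18 and 4.54 against 0.42, 0.23 and 0.18, a difference of 4.14 ± 0.11, 17.7-fold (adjusted p = 2.49e-09 by limma). Plaur, the urokinase receptor, was also not well above background in sham/Eviprostat and was at least 9.81-fold higher by Cy5 level. Mmp3 and Mmp7, stromelysin and matrilysin, differed by 0.22 ± 0.13 and -0.19 ± 0.10 (adjusted p = 0.36 and 0.301 by limma).

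Of 20 TGF-beta signalling genes 4 were called higher, against 7.75% of all genes, and none lower, with a median difference of 0.32. The count was 9 with the replicate block and 10 without obstruction/vehicle replicate 2, and 2 without obstruction/vehicle replicate 3 or sham/Eviprostat replicate 2 or 3. Tgfbi, a matrix protein that TGF-beta induces, gave 3.60, 2.45 and 2.91 against 0.94, 0.22 and 0.25, a difference of 2.51 ± 0.26 (adjusted p = 7.88e-05 by limma). Ccn2, connective tissue growth factor, rose by 2.00 ± 0.23 (adjusted p = 0.000176 by limma). The ligand Tgfb1 rose less, by 0.47 ± 0.13 (adjusted p = 0.0364 by limma), and Ccn1 by 0.52 ± 0.12 (adjusted p = 0.0163 by limma). Both calls ended without obstruction/vehicle replicate 1 or 3 or sham/Eviprostat replicate 2 or 3, where the adjusted p by limma was 0.115 to 0.134 for Tgfb1 and 0.0506 to 0.0733 for Ccn1. The other Ccn1 probe rose by 1.56 ± 0.26 (adjusted p = 0.00248 by limma), and the other Tgfbi probe by 0.78 ± 0.19 (adjusted p = 0.0205 by limma). Inhba, an activin subunit, differed by 0.42 ± 0.16 (adjusted p = 0.138 by limma, 0.047 with the replicate block and 0.00991 without obstruction/vehicle replicate 2).

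**Figure D3:**
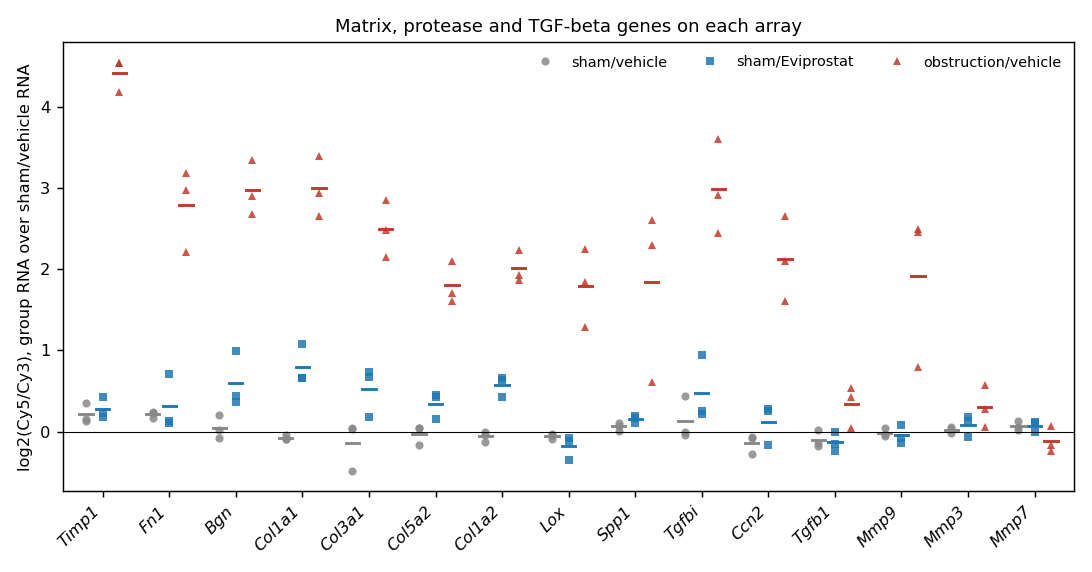
Log2 ratio of Cy5 to Cy3 for 15 matrix, protease and TGF-beta genes, with 1 point per array and a bar at the mean of 3 arrays in each group. Timp1 lies at 4.18 to 4.54 in obstruction/vehicle and Col1a1 at 2.65 or more, with sham/Eviprostat at 0.65 to 1.08 for Col1a1, while Mmp3 and Mmp7 lie near 0.

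Of 25 hypoxia and glycolysis genes 15 were called higher and none lower, with a median difference of 0.85. Slc16a3, the lactate exporter of glycolytic cells, gave 3.09, 3.02 and 3.39 against 0.40, 0.81 and 0.78, a difference of 2.50 ± 0.14 (adjusted p = 3.53e-07 by limma). Ndrg1 and Adm, which low oxygen induces, rose by 2.12 ± 0.23 and 2.03 ± 0.17 (the other Ndrg1 probe differed by 0.35 and was not called), and the glycolytic enzymes Pgk1 and Ldha by 1.78 ± 0.13 and 1.33 ± 0.09. Slc16a3 and Ldha were also higher in sham/Eviprostat than in sham/vehicle, by 0.69 (adjusted p = 0.0293 by limma) and 0.76 (adjusted p = 0.0012 by limma).

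Of 24 antioxidant genes 9 were called higher and 1, Gstm1, lower, with a median difference of 0.32. With the replicate block 14 were higher, and without obstruction/vehicle replicate 3, 6 were, with a median of 0.19. Sod2, the mitochondrial superoxide dismutase, rose by 2.63 ± 0.28, and Hmox1, which degrades heme, gave 2.58, 2.20 and 2.68 against 0.06, 0.01 and -0.01, a difference of 2.46 ± 0.12 (adjusted p = 8.8e-08 by limma). Of 27 immediate early and stress factors 14 were called higher and none lower, with a median of 0.65. Cebpd, a transcription factor of the acute-phase response, rose by 3.27 ± 0.12, Junb by 2.37 ± 0.16 and Atf3 by 2.28 ± 0.35, while Myc differed by 0.25 ± 0.10 (adjusted p = 0.161 by limma, and 0.045 with the replicate block).

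Interferon-response genes were mixed. Of 24 measured, 9 were called higher and 2, Isg20 and Ifitm3, lower, with a median difference of 0.36. Ifit1, an antiviral RNA-binding protein, gave 3.61, 2.97 and 4.38 against -0.15, 0.24 and 0.20, a difference of 3.56 ± 0.27 (adjusted p = 4.84e-06 by limma), although its 2 other probes ranged from 0.17 to 2.83. Isg15, a ubiquitin-like modifier, and Oas1a, which senses double-stranded RNA, rose by 1.99 ± 0.17 and 1.91 ± 0.30. Irf1 differed by 1.12 ± 0.33 (adjusted p = 0.0515 by limma, and 0.00654 with the replicate block), and was called without obstruction/vehicle replicate 1 or 2 (adjusted p = 0.0321 and 0.0195 by limma). The lower calls for Isg20 and Ifitm3, at -0.96 and -0.33, were narrow. Neither was called without obstruction/vehicle replicate 2 or without any 1 of the sham/Eviprostat replicates, with adjusted p from 0.057 to 0.185 by limma. The Isg20 call also ended without obstruction/vehicle replicate 3 (0.13) and the Ifitm3 call without obstruction/vehicle replicate 1 (0.141).

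Enzymes that make prostaglandins and nitric oxide gave 8 higher and 1 lower of 18, with a median difference of 0.59. Arg1, which competes for arginine, rose by 2.21 ± 0.12, Ptges, a prostaglandin E synthase, by 1.65 ± 0.15, and Nos2, inducible nitric oxide synthase, by 1.32 ± 0.24. Ptgs2, cyclooxygenase-2, gave 1.86, 0.40 and 2.17 against 0.04, 0.07 and 0.06, a difference of 1.42 ± 0.32 (adjusted p = 0.0156 by limma). That call ended without obstruction/vehicle replicate 1 or 3 or sham/Eviprostat replicate 2 or 3, with adjusted p between 0.0535 and 0.0641 by limma. The lower gene was Hpgd, which breaks prostaglandins down, at -1.27 ± 0.21 (adjusted p = 0.00237 by limma). It is also on the prostate list described below.

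Slc26a4 and G0s2 were the 2 genes outside the lists among the 10 that rose most. Slc26a4, the anion exchanger pendrin, gave 3.96, 3.75 and 4.38 against -0.42, -0.13 and -0.21, a difference of 4.28 ± 0.14 (adjusted p = 7.9e-09 by limma). G0s2, an inhibitor of triglyceride breakdown, gave 5.67, 4.94 and 5.30 against 1.20, 0.64 and 0.51, a difference of 4.52 ± 0.24 (adjusted p = 2.57e-07 by limma). Neither showed any overlap between the groups.

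**Figure D4:**
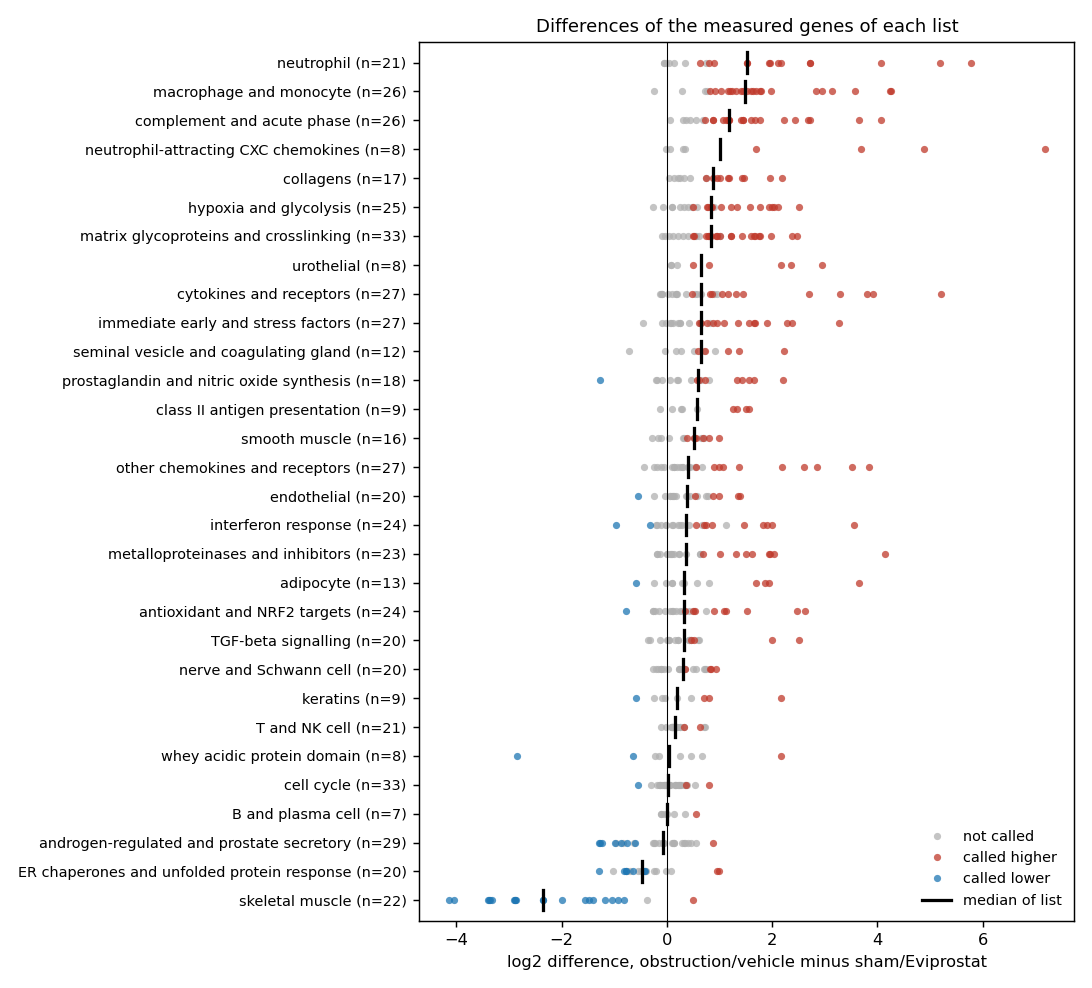
Log2 difference, obstruction/vehicle minus sham/Eviprostat, of every measured gene of the 30 lists, with 1 point per gene coloured by its call at an adjusted p under 0.05 and a vertical bar at the list's median. The neutrophil and macrophage lists have medians of 1.53 and 1.48 and skeletal muscle one of -2.36, beside -0.007 over all genes.

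Genes of the skeletal muscle list were 8 of the 10 genes that fell most. Of 22 measured, 20 were lower in obstruction/vehicle and 1, Tpm3, higher, with a median difference of -2.36. Against the sham/vehicle arrays, which both comparisons share, 13 were lower in obstruction/vehicle, with a median of -0.97, and 16 were higher in sham/Eviprostat, with a median of 1.28, where 5.16% and 1.21% of all genes were. So the fall held a level below sham/vehicle in obstruction/vehicle and a level above it in sham/Eviprostat. Myh4, the myosin heavy chain of fast fibres, gave -1.46, -1.98 and -1.82 in obstruction/vehicle and 1.98, 1.49 and 1.44 in sham/Eviprostat, a difference of -3.39 ± 0.23 (adjusted p = 2.1e-06 by limma; rn3 chr10:53967556-53967615). Its mean Cy5 was 5763 against 86130. Ckmt2, the mitochondrial creatine kinase of muscle, differed by -4.14 ± 0.41, Pvalb, the calcium buffer of fast fibres, by -4.04 ± 0.30, and Actn3, a fast-fibre actinin, by -3.36 ± 0.21. Muscle enolase Eno3, cytosolic creatine kinase Ckm, the light chain Myl11, troponin Tnni2 and, outside the list, the cytochrome oxidase subunit Cox8b lay between -3.38 and -2.89. The 2 other Cox8b probes, at -0.10 and 0.15, and the 5 other Tpm3 probes, at -0.16 to 0.44, were not called. For the 22 muscle probes the summed Cy5 intensity was 38660 to 130700 on the obstruction/vehicle arrays, 179800 to 733700 on the sham/Eviprostat arrays and 63940 to 242100 on the sham/vehicle arrays. Together 20 of the 22 genes had every obstruction/vehicle array below every sham/Eviprostat array, as held for 9.7% of all genes. How much muscle the tissue held was not tested.

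The largest fall belonged to Andpro. Its ratios were -1.21, -0.23 and -0.72 in obstruction/vehicle and 5.02, 5.30 and 5.25 in sham/Eviprostat, a difference of -5.91 ± 0.21 or 60.2-fold (adjusted p = 1.25e-08 by limma; rn3 chr3:137993724-137994549). The sham/vehicle mean was -0.04. Andpro was thus 5.23 higher in sham/Eviprostat than in sham/vehicle (adjusted p = 1.11e-07 by limma), while obstruction/vehicle differed from sham/vehicle by -0.68 (adjusted p = 0.0631 by limma). Mean Cy5 was 809.5, 61540 and 1001 in obstruction/vehicle, sham/Eviprostat and sham/vehicle.

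Prostate secretory and androgen-regulated genes leaned lower. Of 29 measured, 7 were lower and 1, Srd5a2, higher, with a median difference of -0.08 (-0.14 without sham/Eviprostat replicate 1 or 2 and -0.17 without obstruction/vehicle replicate 3). Msmb gave -1.38, -1.17 and -0.83 against 0.01, 0.23 and 0.10, a difference of -1.24 ± 0.13 (adjusted p = 7.52e-05 by limma). Pbsn, whose spot the scanner software marked as an outlier on obstruction/vehicle replicate 1, so that it was left out there, gave -1.41 and -1.05 on replicates 2 and 3 against -0.16, 0.12 and 0.21, a difference of -1.28 ± 0.15 (adjusted p = 0.000254 by limma). With the replicate block 4 genes of the list were higher and 10 lower, and with median centring 1 was higher and 1 lower. The counts were 4 higher and 8 lower without obstruction/vehicle replicate 2. Wfdc3, a whey acidic protein family member, gave -2.97, -3.04 and -2.78 against -0.30, -0.01 and 0.06, a difference of -2.85 ± 0.11 (adjusted p = 1.29e-08 by limma). Another family member, Slpi, a protease inhibitor of secretions, went up by 2.18 ± 0.11 and stood 2.98 higher in sham/Eviprostat than in sham/vehicle (adjusted p = 7.97e-08 by limma).

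Endoplasmic reticulum genes were the other list with a clearly negative median, -0.47. Of 20 measured, 7 were lower and 2, Ddit3 and Trib3, higher. Hyou1, a chaperone of secretory cells, gave -0.95, -0.91 and -0.65 against 0.40, 0.40 and 0.56, a difference of -1.29 ± 0.09 (adjusted p = 3.95e-06 by limma), and -0.55 on its other probe, also called. It was 0.60 higher in sham/Eviprostat than in sham/vehicle (adjusted p = 0.00677 by limma) and differed by -0.69 between obstruction/vehicle and sham/vehicle (adjusted p = 0.000481 by limma). Dnajc3, a co-chaperone, differed by -0.81 ± 0.10 (adjusted p = 0.000221 by limma). Hspa5, the main chaperone of the compartment, differed by -1.02 ± 0.33 (adjusted p = 0.0768 by limma, and 3.97e-06 with the replicate block). Ddit3 and Trib3, stress genes of the same pathway that accompany its later phase, rose by 0.95 ± 0.18 and 0.99 ± 0.20. The lower count was 14 with the replicate block, 4 without obstruction/vehicle replicate 1 or sham/Eviprostat replicate 2 or 3, and 0 with median centring, where the list median was -0.43.

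**Figure D5:**
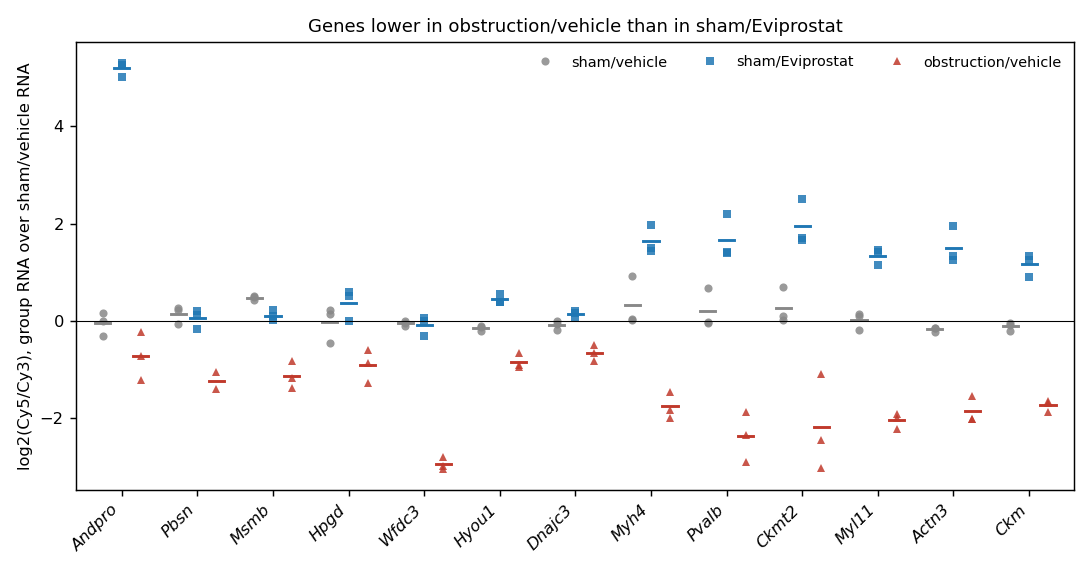
Log2 ratio of Cy5 to Cy3 for 13 genes lower in obstruction/vehicle than in sham/Eviprostat, with 1 point per array and a bar at the group mean (Pbsn has 2 obstruction/vehicle arrays). Andpro and the muscle genes lie above 0 in sham/Eviprostat and below 0 in obstruction/vehicle, while Wfdc3 and Msmb lie near 0 in sham/Eviprostat.

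Markers of other tissues around the bladder neck also differed. Of 8 urothelial genes 5 were called higher and none lower, with a median difference of 0.66. Upk3a, a uroplakin of the urothelial surface, gave 3.47, 2.75 and 3.65 against 0.12, 0.42 and 0.47, a difference of 2.95 ± 0.19 (adjusted p = 1.45e-06 by limma). Upk1b, another uroplakin, rose by 2.37 ± 0.27 (its other probe differed by 0.64 and was not called) and the keratin Krt7 by 2.17 ± 0.21, and Krt5 by 0.81 ± 0.12. Grhl3, a transcription factor of the urothelium and skin, completed the count at 0.50 ± 0.13 (adjusted p = 0.0304 by limma), a call that ended without obstruction/vehicle replicate 1 or 3 or sham/Eviprostat replicate 2 or 3 (0.0673 to 0.127). Summed Cy5 over the 8 probes was 25550 to 75510 on the obstruction/vehicle arrays and 4612 to 11210 on the sham/Eviprostat arrays. Of 13 adipocyte genes 4 were higher (Cfd, Retn, Adipoq and Fabp4) and 1, Cidea, lower, where 7.75% and 4.81% of all genes were. Their median difference was 0.32. Adipoq, the fat hormone adiponectin, gave 3.08, 0.80 and 2.88 against 0.55, 0.33 and 0.25, a difference of 1.87 ± 0.43 (adjusted p = 0.0167 by limma). Leaving out obstruction/vehicle replicate 1 or 3, or sham/Eviprostat replicate 2 or 3, ended that call, with adjusted p between 0.0602 and 0.0837 by limma, and left 2 adipocyte genes called higher. The Cidea call ended without sham/Eviprostat replicate 2 or 3 (adjusted p = 0.0613 and 0.0674 by limma). The count of higher adipocyte genes was 7 without obstruction/vehicle replicate 2 and with the replicate block. Summed Cy5 for this list was 13740 to 54530 against 5908 to 13730. The part of urothelium and fat in the other differences was not tested.

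Smooth muscle, vessel, nerve and keratin genes had smaller median differences. Of 16 smooth muscle genes 6 were higher and none lower by their brightest probes, with a median difference of 0.52. Of the 3 other probes of Tpm1, a member of this list, 2 were called lower, at -2.32 and -0.82. The third, at -0.61, was not called. Actg2, the gamma actin of smooth muscle, gave 1.33, 1.70 and 1.97 against 0.44, 0.85 and 0.76, a difference of 0.98 ± 0.15 (adjusted p = 0.00126 by limma). The smooth muscle count was 12 with the replicate block, 3 without obstruction/vehicle replicate 3 and 0 with median centring. Among 20 endothelial genes 5 were higher and 1 lower, where 7.75% and 4.81% of all genes were. Icam1, which holds leukocytes on the vessel wall, rose by 1.36 ± 0.14, and Selp, the selectin on which they roll, differed by -0.55 ± 0.09. Pecam1 and Sele differed by 0.07 ± 0.09 and -0.04 ± 0.10 and were not called. The endothelial count was 11 with the block, 9 without obstruction/vehicle replicate 2, and 3 without obstruction/vehicle replicate 1 or sham/Eviprostat replicate 3.

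Nerve and Schwann cell genes gave 4 higher and none lower of 20, with a median of 0.30, where 7.75% of all genes were higher. The higher count was 8 with the block and 11 without obstruction/vehicle replicate 2. Prph, a filament protein of peripheral neurons, stood at 2.74, 2.23 and 3.00 in obstruction/vehicle and at 1.69, 1.90 and 1.89 in sham/Eviprostat, above the 0.05 of sham/vehicle in both, and differed by 0.83 ± 0.17 (adjusted p = 0.00907 by limma). Of 9 keratins 3 (Krt7, Krt5 and Krt14, the last on 1 of 2 probes) were higher and 1, Krt18, lower. The shares over all genes were 7.75% and 4.81%. The Krt18 call, at -0.59 ± 0.16 (adjusted p = 0.0395 by limma), ended without any 1 of the sham/Eviprostat arrays or without obstruction/vehicle replicate 2 or 3, with adjusted p from 0.0533 to 0.123 by limma, while the luminal keratin Krt8 differed by -0.03 ± 0.24 (adjusted p = 0.965 by limma).

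Cell cycle genes gave few calls. Of 33 measured, 2 were higher and 1 lower, below the share over all genes, with a median of 0.03 (-0.02 to 0.09 with single arrays left out). Cdkn1a, an inhibitor of the cycle, rose by 0.81 ± 0.07 (adjusted p = 2.77e-05 by limma) and Cdk1, which drives mitosis, by 0.37 ± 0.09 (adjusted p = 0.02 by limma), while Aurkb, a mitotic kinase, differed by -0.55 ± 0.09 (adjusted p = 0.00196 by limma). Neither the other Aurkb probe, at 0.14, nor the other Cdkn1a probe, at 0.30, was called, and with the mean of all probes of a gene no cell cycle gene was lower. The proliferation marker Mki67 gave -0.01, -0.01 and 0.21 against 0.05, 0.07 and 0.16, a difference of -0.03 ± 0.13 (adjusted p = 0.928 by limma). With the replicate block 6 were higher, and without obstruction/vehicle replicate 2, 4. Without obstruction/vehicle replicate 3 or sham/Eviprostat replicate 2 or 3 the Cdk1 call ended, with adjusted p of 0.0779, 0.0578 and 0.0676 by limma.

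The same genes can be set against sham/vehicle, with the caution that both comparisons use the same 3 arrays. Of the 21 neutrophil genes 14 were higher in obstruction/vehicle and 1 in sham/Eviprostat, of the 26 macrophage genes 23 and 0, and of the 26 complement genes 21 and 0. For collagens the counts were 11 and 2 of 17, for hypoxia genes 19 and 4 of 25, and for smooth muscle 11 and 4 of 16. Nerve genes gave 12 and 8 of 20, so that list, like the seminal vesicle list, stood above sham/vehicle on both sides. Over all genes 1458 were higher and 756 lower in obstruction/vehicle, and 177 higher and 36 lower (0.246%) in sham/Eviprostat.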

How the data were processed

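Prostate RNA was hybridised to 2-colour Agilent arrays. Intensity values of each spot were read from the scanner files, written by Agilent Feature Extraction (version 9.5.1.1, per the file headers), and the authors' deposited value table equals that software's log10 ratio of Cy5 over Cy3. Here mean signals were corrected with normexp (offset 50) and normalized by loess within each array. Control spots and spots marked as outliers were left out and saturated spots kept. Of 41012 probes, 36098 whose Cy5 stood well above background on 3 or more of the 12 arrays were tested with limma 3.58.1 in R 4.3.3 (statmod 1.5.0, data.table version 1.17.8), with a mean for each of the 4 groups, 8 residual degrees of freedom, and p-values adjusted over all probes by Benjamini-Hochberg. A gene's brightest kept probe stands for it. Names came from the arrays and from GRCr8 gene tables (20784 probes had none), and coordinates from the arrays, on rn3. Figures were drawn with matplotlib 3.10.9 in Python 3.11.15.

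The members and the 30 gene lists, of which 577 of 636 genes were measured, were chosen with earlier results of these data known. Genes were named as the 10 that rose and the 10 that fell most among called genes of the same sign on all 3 slides, with Cy5 well above background on all arrays of at least 1 of the groups, the 3 called genes per list with the largest difference, fixed anchor genes of each list and all seminal vesicle genes, 143 in all. Genes outside this rule are said to be so, and a few genes that it names are not reported here. Where a probe was dim on every array of a group, a bound sets the bright group's mean normalized Cy5 against, on each dim array, the higher of its own signal and the lowest signal well above background. These single-channel bounds are open to dye bias, since no dyes were swapped.

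Replicate numbers are shared by the groups and are slide numbers. Deviations of same-numbered arrays of the 2 groups from their group means correlated at 0.779, 0.277 and 0.513 for replicates 1, 2 and 3. The highest correlations with arrays of other numbers were -0.641, 0.288 and 0.452. Replicate 2 thus correlated no better with its own number, so these values do not settle whether the numbers pair the samples. The main fit holds no term for the slide, which the replicate block adds. In all, 17 alternatives were run, among them other background and scaling choices, dim-probe filters, Cy5 alone, the replicate block and each single array left out. The fit was tested on simulated data before use.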

Additional observations from a re-analysis of the deposited data

How the results depend on the processing

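The 3463 called probes became 7176 without background subtraction, 1335 with median centring, 112 with raw signals, 13365 with the scanner software's log ratio, 1237 in a fit of only the 6 arrays compared and 8022 with the replicate block, and 2117 to 6069 when single arrays were left out. The 256 calls among list genes became 28 with raw signals, 404 with the scanner ratio and 162 with the 6 arrays alone, and 202 to 325 with single arrays left out. Of the 143 named genes 116 were called, 24 with raw signals and 100 to 123 with single arrays left out. No named gene that was called changed direction under any alternative run. Of the 1841 genes called, 1841 were also called in the same direction with the block, 624 with median centring and 71 with raw signals. Of the 116 named genes called, 33 lost the call with median centring and 92 with raw signals, Pbsn, Msmb, Hpgd, Hyou1 and Dnajc3 in both. The replicate block ended no call among these genes and added others. It gave 18 cytokine genes higher, 15 other chemokine genes higher and 1 lower, 21 hypoxia genes higher and 1 lower, 19 immediate early genes higher and 1 lower, and 1 lower gene each of TGF-beta signalling and smooth muscle. The causes of these changes were not tested. The pooling of tissue, the fixed slide positions, the missing dye swap and the dimmer first slide limit all values, and saturated and dim spots compress the largest ratios. Labelled RNA also differed, with 1500 ng used in the sham/vehicle group and 300 ng in each other group.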
